A study of Mus musculus with 12 samples.

Results

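The Ikaros family comprises 5 genes in the mouse, Ikzf1 (Ikaros), Ikzf2 (Helios), Ikzf3 (Aiolos), Ikzf4 (Eos) and Ikzf5 (Pegasus). They were taken by gene name from a table of RNA-seq read counts with 54532 entries, and all 5 were found once and passed the filter on low counts, with 13393 genes tested in all. The table covers 12 libraries of CD4 T cells sorted from mixed spleen and lymph node, with 3 libraries for each of 4 subsets. Levels are CPM (read counts scaled to a common library size) after TMM scaling. TMM corrects library size by the average ratio between libraries, leaving out genes with extreme ratios or levels.

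All 4 subsets came from untreated wildtype C57BL/6 mice that carry a Foxp3-GFP reporter and a polyclonal T cell repertoire, and the cells were processed directly after isolation. Anergic cells were FOXP3-, CD44high and NRP1+, with high CD73 and FR4. Treg cells were sorted as CD25+ and FOXP3+. Teff cells were FOXP3- and CD44high with low CD73 and FR4, and Naive cells were CD44low. The subsets are therefore defined by surface proteins and the reporter, and each can hold a mixture of cells. The labels used here give no age or sex and do not say whether libraries 1 to 3 of a subset came from separate animals. The p-values therefore measure only the spread between these libraries, which may be technical.

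Ikaros family proteins are zinc finger transcription factors of the lymphoid lineage. They bind DNA through a group of zinc fingers near the N-terminus and pair with each other through fingers at the C-terminus, and they recruit chromatin complexes such as NuRD that can silence or maintain target genes. In T cells, Helios and Eos are best known from regulatory T cells, where Eos is a co-repressor partner of FOXP3. Ikaros and Aiolos are known as repressors of Il2 in T cells, and Pegasus recognises a different DNA sequence from the other members.

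The coding DNA of the second zinc finger that a pattern search found in each gene (cysteine, 2 residues, cysteine, 12 residues, histidine, 3 to 5 residues, histidine or cysteine) was set beside that of Ikzf1. The stretches are 63 bases of the GENCODE M21 transcripts on GRCm38, printed 5′ to 3′ on the coding strand, and capitals mark bases that differ from Ikzf1.
Ikzf1: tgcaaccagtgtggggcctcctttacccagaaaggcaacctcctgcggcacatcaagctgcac
Ikzf2: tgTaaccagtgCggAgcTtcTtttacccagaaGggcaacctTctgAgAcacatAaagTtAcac
Ikzf3: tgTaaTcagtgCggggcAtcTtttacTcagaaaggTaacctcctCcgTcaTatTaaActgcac
Ikzf4: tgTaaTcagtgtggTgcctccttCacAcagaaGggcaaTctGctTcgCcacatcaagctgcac
Ikzf5: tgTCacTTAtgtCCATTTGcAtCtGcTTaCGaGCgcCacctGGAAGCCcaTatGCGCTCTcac
Ikzf1, Ikzf2, Ikzf3 and Ikzf4 encode the same 21 residues in this finger, through codons that differ from Ikzf1 at 12, 12 and 10 bases for Ikzf2, Ikzf3 and Ikzf4. Ikzf5 differs at 37 bases and shares 5 of the 21 residues. Most of these are the cysteines and histidines that the search pattern itself asked for. Fingers were matched by order, and the search found 6 in Ikzf1 and 5 in Ikzf5. The Ikzf5 stretch therefore need not be the counterpart of the others. No stretch of 50 bases was shared between any pair of members, and the longest shared run was 32 bases, between Ikzf2 and Ikzf4. No 50-base read of one annotated transcript could therefore match another member without a mismatch.

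On GRCm38, Ikzf1 lies at chr11:11685003-11772926 on the plus strand. The other members are on the minus strand, Ikzf2 at chr1:69531214-69687245, Ikzf3 at chr11:98464902-98546031, Ikzf4 at chr10:128630843-128645991 and Ikzf5 at chr7:131388652-131410521. The annotation places exons of other genes on the opposite strand over 84.5% of the exon bases of Ikzf5, chiefly Pstk with 81.3%, over 1.24% of those of Ikzf2 and 0.617% of those of Ikzf4, and over none of Ikzf1 or Ikzf3. Whether the counting used strand is not given in the sources used here. Counts of Ikzf5 are uncertain for that reason. They may hold reads of Pstk or lack reads that overlap both genes.

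The libraries held 6909035 to 9527897 counts. Between 29.4% and 40.4% of them fell on 6 entries of mitochondrial, ribosomal and other abundant RNA, with the highest share in Anergic library 3. The sort was checked against marker genes. Foxp3 averaged 18.2 CPM in Anergic, 542 CPM in Treg, 0.733 CPM in Teff and 1.35 CPM in Naive cells. Nrp1, which encodes the NRP1 used to gate Anergic cells, averaged 332 CPM in Anergic, 253 CPM in Treg, 62.6 CPM in Teff and 3.46 CPM in Naive cells. The 7 CD4 T cell markers were detected in all subsets, and the 6 B cell markers summed to at most 7.86 CPM in a library. The 5 markers of NK and innate-like T cells summed to 44.5 to 55.0 CPM in Anergic, 7.56 to 9.99 CPM in Treg, 138 to 189 CPM in Teff and 7.72 to 9.91 CPM in Naive libraries. In Teff cells, Zbtb16, the transcription factor of innate-like T cells, averaged 99.71 CPM. Not all 5 markers were highest there. Eomes averaged 15.9 CPM in Anergic and 14.1 CPM in Teff cells, and Trdc 5.11 and 2.33 CPM. The part of NK and innate-like T cells in the Teff results below was not tested.

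Of the 5 members, 4 passed a test of any difference among the subsets and Ikzf5 did not (edgeR's quasi-likelihood test, adjusted over all tested genes). The adjusted p was 6.26e-12 for Ikzf1, 1.83e-20 for Ikzf2, 9e-14 for Ikzf3, 1.2e-18 for Ikzf4 and 0.979 for Ikzf5, where 56.0% of all tested genes passed this test. The 4 members that passed had different orders of subsets. Ikzf2 and Ikzf4 were highest in Treg cells and next highest in Anergic cells, Ikzf1 was highest in Naive cells, and Ikzf3 was high in Treg and Teff cells. The ratio of the highest to the lowest subset mean was 128 for Ikzf2, 37.7 for Ikzf4, 2.25 for Ikzf3, 2.10 for Ikzf1 and 1.03 for Ikzf5.

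**Figure D1:**
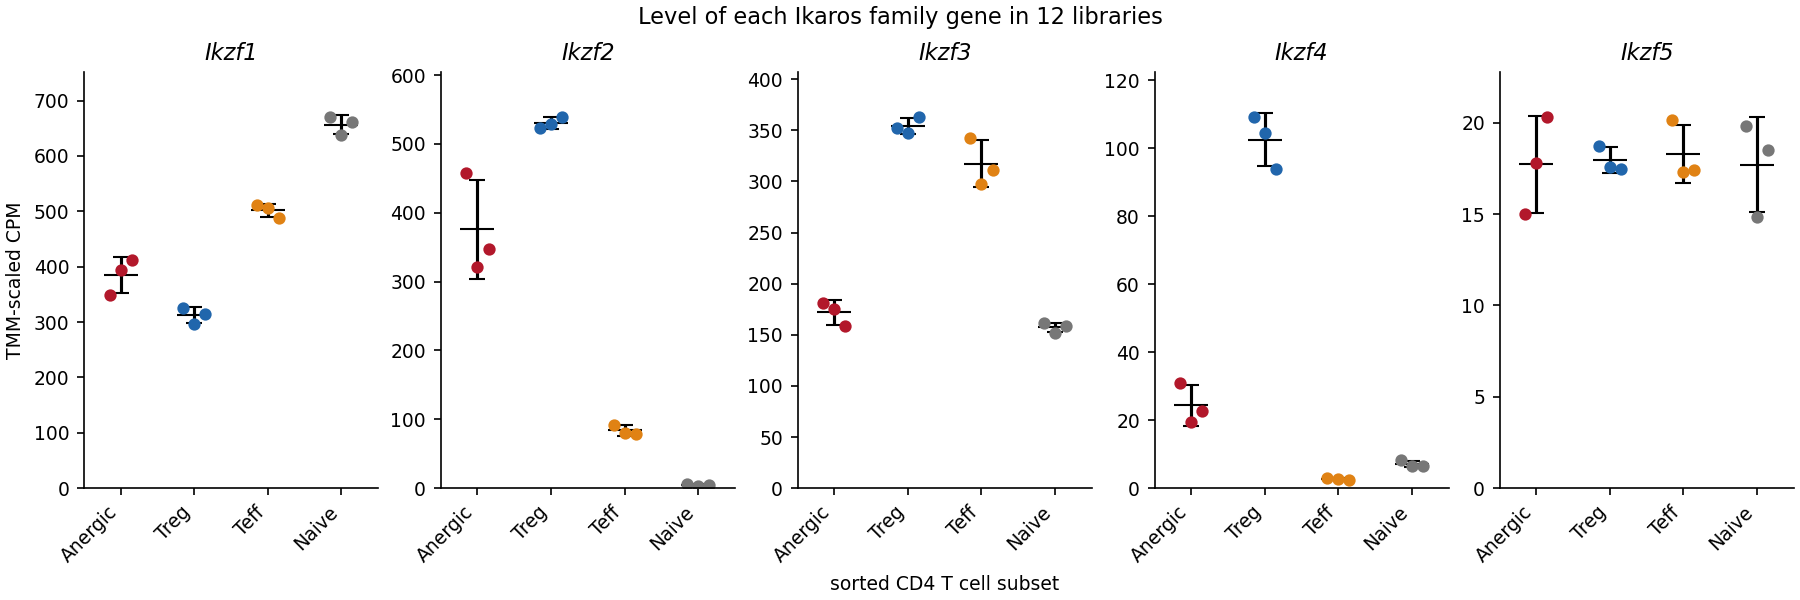
Level of each Ikaros family gene in TMM-scaled CPM (vertical axis, from 0, with its own scale in each panel) in the Anergic, Treg, Teff and Naive subsets. Points are the 3 libraries of a subset in the order of their numbers, and bars are the mean and SD. Ikzf2 and Ikzf4 are highest in Treg and second in Anergic cells, Ikzf1 is highest in Naive cells, and Ikzf5 overlaps in all subsets.

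Ikzf2 encodes Helios, a marker of regulatory T cells that arise in the thymus. It had 457.7, 321.9 and 347.3 CPM in Anergic libraries 1 to 3, 523.5, 528.4 and 539.3 CPM in Treg libraries, 92.34, 79.89 and 79.25 CPM in Teff libraries, and 5.365, 2.844 and 4.24 CPM in Naive libraries. No 2 subsets overlapped, and the order was Treg, Anergic, Teff, Naive. The Naive values rest on 23 to 39 reads a library. Levels in bulk RNA do not separate the number of expressing cells from the RNA per cell, so fewer Helios-expressing cells and less Ikzf2 RNA per cell cannot be told apart here or in the results that follow.

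Ikzf2 was 4.48-fold higher in Anergic than in Teff cells (log2 fold change 2.16 ± 0.11 SE, adjusted p = 7.56e-14, edgeR). Against Naive cells it was 91.2-fold higher in Anergic cells (6.51 ± 0.16, adjusted p = 5.68e-20) and 20.4-fold higher in Teff cells (4.35 ± 0.17, adjusted p = 7.41e-16). In Treg cells the fitted level was 129-fold higher than in Naive cells (7.01 ± 0.16, adjusted p = 2.53e-20), which was rank 48 by size of change among the 13393 tested genes, and 6.32-fold higher than in Teff cells (2.66 ± 0.11, adjusted p = 1.28e-15). The difference between the highest subsets was small beside these. Ikzf2 was 1.41-fold lower in Anergic than in Treg cells (log2 fold change -0.50 ± 0.10, adjusted p = 0.000277). The Anergic libraries also spread more, with a coefficient of variation of 19.2% against 1.53% in Treg libraries, and library 1 was the highest of the 3.

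Ikzf4 encodes Eos, the FOXP3 co-repressor. It had 30.98, 19.45 and 22.71 CPM in Anergic libraries, 109.2, 104.3 and 93.97 CPM in Treg libraries, 3.008, 2.597 and 2.544 CPM in Teff libraries, and 8.254, 6.554 and 6.512 CPM in Naive libraries. The subsets were again separate, but here the order was Treg, Anergic, Naive, Teff. The Teff values rest on 20 to 26 reads a library.

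Ikzf4 was 8.92-fold higher in Anergic than in Teff cells (log2 fold change 3.16 ± 0.19 SE, adjusted p = 3.55e-12) and 3.43-fold higher than in Naive cells (1.78 ± 0.16, adjusted p = 2.11e-09). In the same cells it was 4.20-fold lower than in Treg cells (-2.07 ± 0.11, adjusted p = 7.14e-13). Treg cells exceeded Teff cells 37.4-fold (5.23 ± 0.16, adjusted p = 1.48e-17) and Naive cells 14.4-fold (3.85 ± 0.14, adjusted p = 1.78e-16). Between Teff and Naive cells the direction differed from that of Ikzf2: Ikzf4 was 2.60-fold lower in Teff cells (-1.38 ± 0.24, adjusted p = 6.33e-05). As for Ikzf2, Anergic library 1 was the highest of its subset, and the coefficient of variation there was 24.4%.

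Ikzf1 encodes Ikaros, the founding member, which is present throughout the lymphoid lineage. It had 349.5, 394.6 and 412.7 CPM in Anergic libraries, 325.9, 296.9 and 314.4 CPM in Treg libraries, 511.1, 505.7 and 488 CPM in Teff libraries, and 670.7, 637.2 and 661.1 CPM in Naive libraries. No subsets overlapped, and each of the 3 antigen-experienced or regulatory subsets lay below Naive cells. Ikzf1 was 1.70-fold lower in Anergic (log2 fold change -0.77 ± 0.07 SE, adjusted p = 8.93e-10), 2.10-fold lower in Treg (-1.07 ± 0.07, adjusted p = 3.92e-12) and 1.31-fold lower in Teff cells (-0.39 ± 0.07, adjusted p = 4.53e-05) than in Naive cells. It was also 1.30-fold lower in Anergic than in Teff cells (-0.38 ± 0.07, adjusted p = 8.75e-05) and 1.61-fold lower in Treg than in Teff cells (-0.68 ± 0.07, adjusted p = 1.37e-08).

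Anergic cells had 1.23-fold more Ikzf1 than Treg cells (log2 fold change 0.30 ± 0.07 SE, adjusted p = 0.000905). With libraries scaled by total counts alone, this difference was 0.17 with an adjusted p of 0.0686, and the median over all genes moved to -0.13 under that scaling. Anergic library 1, the highest of its subset in Ikzf2 and Ikzf4, was the lowest in Ikzf1.

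Ikzf3 encodes Aiolos, a close relative of Ikaros, which is known to accompany lymphocyte activation and maturation. It had 181.4, 175.7 and 158.5 CPM in Anergic libraries, 351.8, 347.4 and 363.2 CPM in Treg libraries, 342.7, 297.8 and 311.4 CPM in Teff libraries, and 161.1, 152.2 and 158.6 CPM in Naive libraries. The libraries fell at a high level in Treg and Teff cells and at a low level in Anergic and Naive cells. Ikzf3 was 1.85-fold lower in Anergic than in Teff cells (log2 fold change -0.88 ± 0.07 SE, adjusted p = 2.73e-10) and 2.06-fold lower than in Treg cells (-1.04 ± 0.07, adjusted p = 1.19e-11). Against Naive cells it was 2.25-fold higher in Treg (1.17 ± 0.07, adjusted p = 1.18e-12) and 2.02-fold higher in Teff cells (1.01 ± 0.07, adjusted p = 1.76e-11).

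The remaining differences of Ikzf3 did not pass the test. Anergic and Naive libraries overlapped, with a log2 fold change of 0.13 ± 0.07 SE (adjusted p = 0.133, edgeR), and without Anergic library 3 the value was 0.18 (adjusted p = 0.0439). Treg libraries all lay above Teff libraries, with a log2 fold change of 0.16 ± 0.07 (adjusted p = 0.0771). This difference passed with limma's voom (0.16, adjusted p = 0.0437) and without Teff library 1 (0.21, adjusted p = 0.0273), which was the highest Teff library.

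Ikzf5 encodes Pegasus, the most divergent member. It had 15.02, 17.81 and 20.32 CPM in Anergic libraries, 18.75, 17.57 and 17.48 CPM in Treg libraries, 20.13, 17.31 and 17.43 CPM in Teff libraries, and 19.81, 14.84 and 18.48 CPM in Naive libraries. The subsets overlapped in every comparison, and all 4 means lay between 17.7 and 18.3 CPM. Log2 fold changes between subsets were between -0.05 and 0.05 with standard errors of 0.13 to 0.14, and adjusted p-values were 0.80 to 0.994 (edgeR). Pstk, a kinase of selenocysteine tRNA synthesis whose exons lie opposite to most of Ikzf5, averaged 9.01 CPM in Anergic, 8.04 CPM in Treg, 9.36 CPM in Teff and 7.50 CPM in Naive cells.

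By comparison, 4 of 5 members were called in Anergic against Teff cells (26.6% of all tested genes were called). Ikzf2 and Ikzf4 were higher (13.9% of all genes) and Ikzf1 and Ikzf3 lower (12.7%). In Anergic against Treg cells, Ikzf1 was higher (15.6% of all genes) and 3 members were lower (15.3%), together 4 of 5 beside 31.0% of all genes. In Anergic against Naive cells, 2 were higher (25.0%) and 1 was lower (21.3%), together 3 of 5 beside 46.2% of all genes. Treg cells had 2 members higher (2006 of 13393 genes) and 1 lower (14.1%) than Teff cells, together 3 of 5 beside 29.1% of all genes. Against Naive cells, Treg cells had 3 members higher (2538 of 13393 genes) and 1 lower (13.9%), together 4 of 5 beside 32.8%. Teff cells had 2 higher (19.2%) and 2 lower (15.7%) than Naive cells, together 4 of 5 beside 34.9%. The libraries of the compared subsets did not overlap for 4 of 5 members in Anergic against Teff cells (37.8% of all genes), Anergic against Treg cells (43.4%), Treg against Teff cells (41.6%), Treg against Naive cells (44.9%) and Teff against Naive cells (45.2%), and for 3 of 5 in Anergic against Naive cells (53.3%). Median log2 fold changes over the 5 members were -0.05 and -0.50 in Anergic against Teff and Treg cells, 0.13 in Anergic against Naive, 0.16 in Treg against Teff, 1.17 in Treg against Naive and 0.05 in Teff against Naive cells, and those over all tested genes were all under 0.01. Ikzf1, Ikzf2 and Ikzf4 passed the test in all 6 comparisons. Ikzf1 and Ikzf2 differed in opposite directions in each of them. Ikzf1 and Ikzf4 did so in all but Teff against Naive cells, where both were lower. These comparisons share libraries and are not independent of each other.

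**Figure D2:**
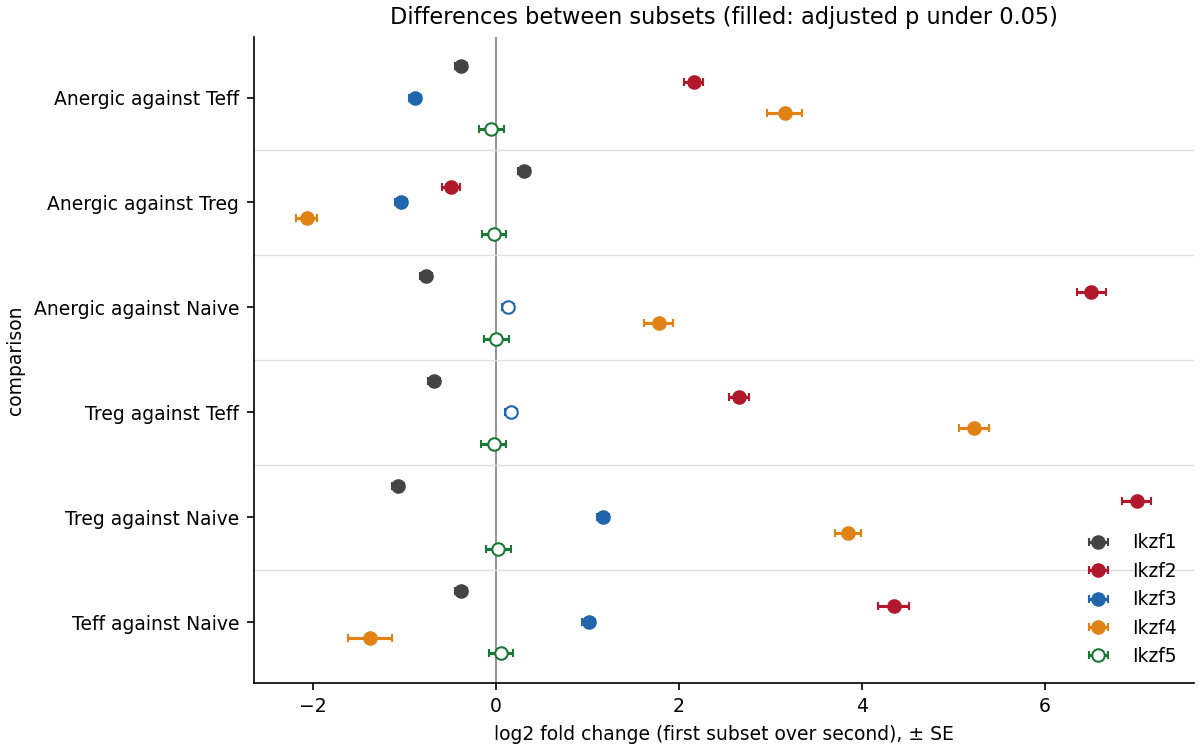
Log2 fold change of each member (horizontal axis, first-named subset over the second, with SE bars) in the 6 comparisons between subsets (vertical axis). Filled points passed an adjusted p of 0.05 in edgeR's test, and open points did not. Ikzf2 and Ikzf4 lie far to the right in Treg against Teff and Treg against Naive cells, Ikzf1 lies left of 0 in every comparison but Anergic against Treg, and Ikzf5 lies near 0.

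Levels of different genes can be set side by side only per length, so CPM were divided by the kilobases of annotated exon of each gene. On that scale the 5 members summed to 125.9 ± 3.09 CPM per kb in Anergic, 160.4 ± 3.11 in Treg, 133.9 ± 4.96 in Teff and 136.2 ± 4.18 in Naive libraries (SD, 3 libraries of each subset). The total was highest in Treg cells, while the order of the other subsets depends on the length used. The makeup of the total differed between subsets. Ikzf1 made up 53.1% ± 5.2 of the total in Anergic, 33.7% ± 0.92 in Treg, 64.9% ± 1.5 in Teff and 83.4% ± 0.38 in Naive libraries. The share of Ikzf2 was 25.6% ± 4.4 in Anergic, 28.5% ± 0.74 in Treg, 5.38% ± 0.27 in Teff and 0.261% ± 0.072 in Naive libraries. That of Ikzf3 was 15.6% ± 1.2 in Anergic, 25.2% ± 0.57 in Treg, 27.0% ± 1.1 in Teff and 13.2% ± 0.025 in Naive libraries.

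With this length, Ikzf2 ranked after Ikzf1 in Anergic cells, whereas Ikzf3 did so in Teff and Naive cells. The ratio of Ikzf2 to Ikzf3 was 1.65 ± 0.26 in Anergic, 1.13 ± 0.015 in Treg, 0.199 ± 0.0063 in Teff and 0.0198 ± 0.0055 in Naive libraries. With the length of the longest transcript it was 1.08 ± 0.17 in Anergic libraries, where 1 of the 3 was under 1 at 0.91, and 0.744 ± 0.00997 in Treg libraries, all 3 under 1. The order of Ikzf2 and Ikzf3 in Treg cells and in that Anergic library therefore turned with the length used. The ratio of Ikzf2 to Ikzf4 was 8.02 ± 0.47 in Anergic, 2.68 ± 0.25 in Treg, 15.9 ± 0.13 in Teff and 0.299 ± 0.065 in Naive libraries, so that Naive cells were the only subset with more Ikzf4 than Ikzf2 RNA per length. Which member leads in Treg cells depended on the length used. It was Ikzf1 with all annotated exons, Ikzf3 with the length of the longest transcript (35.2%) and Ikzf2 with no length correction (40.3%). Ikzf1 had the highest mean share in the other subsets under all of these.

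**Figure D3:**
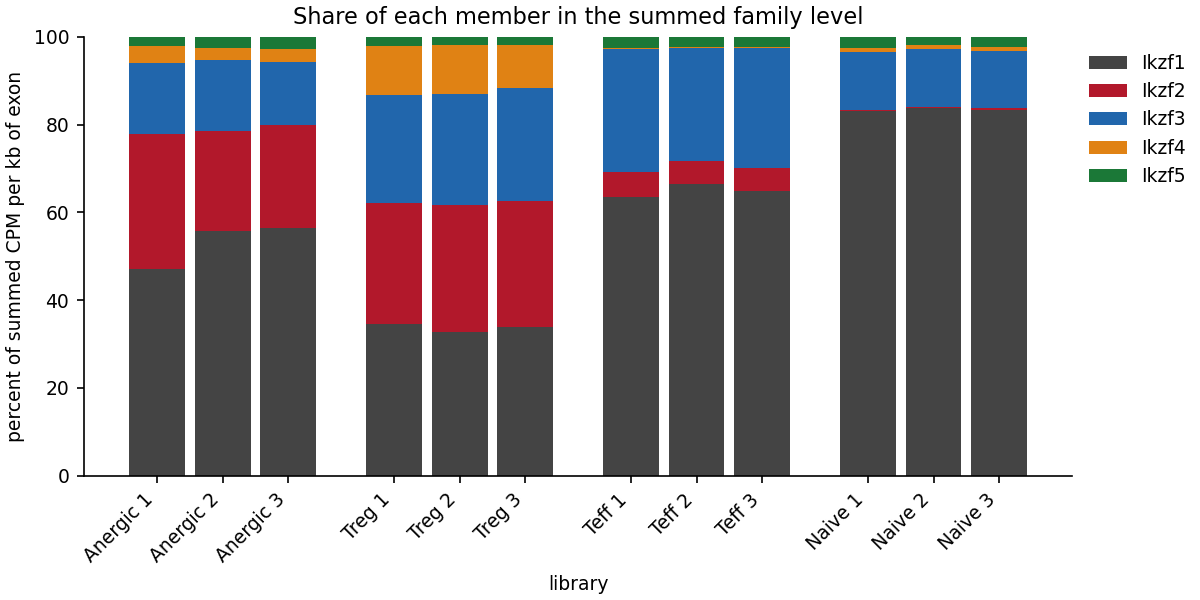
Share of each member in the summed family level (vertical axis, percent of CPM per kb of exon) in each of the 12 libraries (horizontal axis). Ikzf1 takes most of every Naive and Teff library. Ikzf2 takes 22.6% to 30.7% of each Anergic and Treg library, and Ikzf4 is visible as a band mainly in Treg libraries.

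The level in Anergic relative to Treg cells differed between the members that are high in Treg cells. The Anergic level was 70.8% of the Treg level for Ikzf2 (63.1% to 75.9% when 1 library was left out), 48.5% for Ikzf3 (47.2% to 50.4%) and 23.8% for Ikzf4 (20.6% to 26.2%). For Foxp3 it was 3.35% (3.16% to 3.65%). Teff cells had 15.8% of the Treg level of Ikzf2, 2.65% of that of Ikzf4 and 0.135% of that of Foxp3. Naive cells had 0.782% of the Treg level of Ikzf2, 6.93% of that of Ikzf4 and 0.249% of that of Foxp3. Foxp3 itself had 20.3, 15 and 19.26 CPM in Anergic libraries, against 536.6, 529.4 and 560.4 CPM in Treg libraries. The gate fixed this difference, since Anergic cells were sorted as FOXP3- and Treg cells as FOXP3+, so the Foxp3 percentages of the Treg level are a description of the sort. Anergic and Teff cells were both sorted as FOXP3-, so the gate did not fix the difference between them. Foxp3 was 24.3-fold higher in Anergic than in Teff cells (adjusted p = 2.84e-14, edgeR), where the Teff values rest on 3 to 8 reads a library. The cause was not tested.

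**Figure D4:**
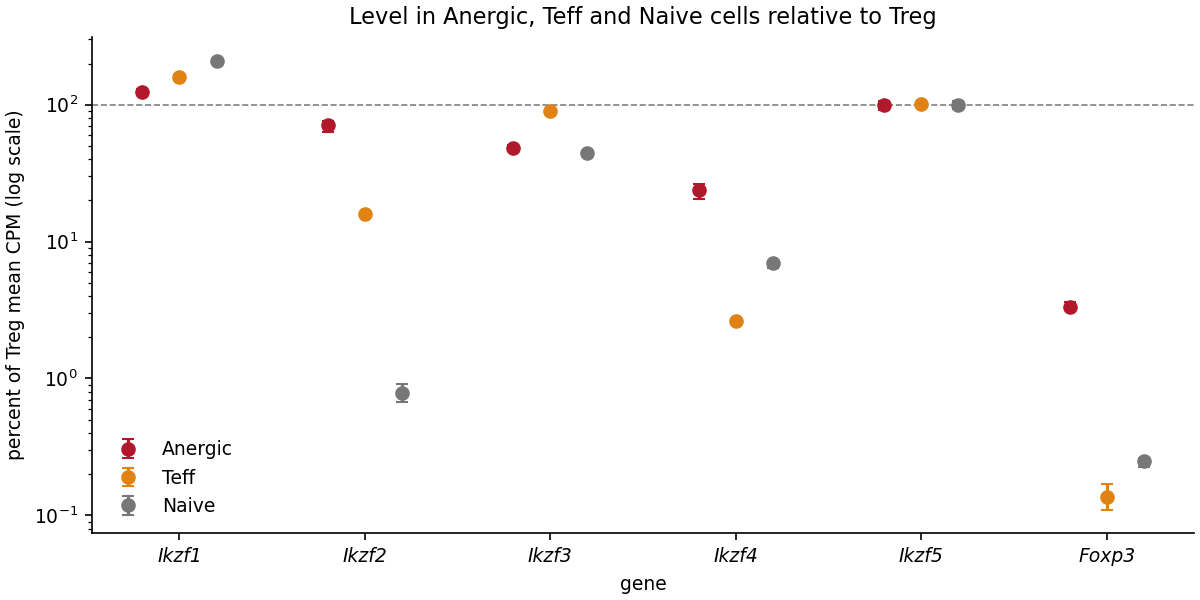
Mean level in Anergic, Teff and Naive cells as a percent of the Treg mean (vertical axis, log scale) for the 5 members and Foxp3 (horizontal axis). Bars span the values with 1 library left out, and the dashed line marks the Treg level at 100 percent. In Anergic cells Ikzf2 lies at 70.8 percent, Ikzf4 at 23.8 percent and Foxp3, which was part of the gate, at 3.35 percent.

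The genes with the most similar pattern were taken by Pearson correlation of log2 CPM over the 12 libraries, among the 7316 tested genes that averaged 10 CPM or more. With 4 subsets of 3 libraries, such a value mainly reflects the 4 subset means and is given as a description. Nearest to Ikzf2 were Myo1e, an unconventional myosin (0.998), Samsn1, an adaptor protein of lymphocytes (0.993), and Nrp1 (0.988), whose product was part of the Anergic gate. Myo1e averaged 49.8 CPM in Anergic, 65.3 CPM in Treg, 12.2 CPM in Teff and 0.642 CPM in Naive cells. Nearest to Ikzf4 were Whrn, a scaffold protein (0.977), Inpp5f, an inositol phosphatase (0.977), and Foxp3 (0.977), whose reporter was part of the gate.

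Nearest to Ikzf1 were Vipr1, the receptor of vasoactive intestinal peptide (0.987), Emb, embigin (0.986), and Enc1 (0.984). Vipr1 averaged 17.8 CPM in Anergic, 10.2 CPM in Treg, 54.7 CPM in Teff and 193.6 CPM in Naive cells, in the same order as Ikzf1 and over a wider range. Nearest to Ikzf3 were E2f2, a cell cycle transcription factor (0.966), Glipr2 (0.965) and Irak2, a kinase of interleukin-1 and Toll-like receptor signalling (0.957). The values for Ikzf5, which did not pass that test, were lower, with Rlim (0.857), Ap3s2 (0.786) and Hcfc2 (0.751) at the top.

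Genes that work with the family were described by lists chosen with earlier results of these data known. Among Foxp3 and its partner factors, all 7 were tested. In Anergic cells, 2 were higher and 2 lower than in Teff cells, 3 higher and 4 lower than in Treg cells, and 3 higher and 3 lower than in Naive cells. Treg cells had 3 higher and 1 lower than Teff cells and 3 higher and 2 lower than Naive cells, and Teff cells had 2 higher and 3 lower than Naive cells. In the Anergic comparisons these were 4 of 7 beside 26.6% of all tested genes against Teff, 7 of 7 beside 31.0% against Treg and 6 of 7 beside 46.2% against Naive cells. In the others they were 4 of 7 beside 29.1% in Treg against Teff, 5 of 7 beside 32.8% in Treg against Naive and 5 of 7 beside 34.9% in Teff against Naive cells. Foxp3 is one of the 7, and the gate fixed its calls in the comparisons with Treg cells. Irf4, a factor of T cell activation that FOXP3 also uses, averaged 94.0 CPM in Anergic against 35.7 CPM in Teff cells, 2.64-fold higher (adjusted p = 2.38e-10, edgeR). Satb1, a genome organiser of T cells, averaged 147.7 CPM in Anergic against 508.6 CPM in Teff cells, 3.45-fold lower (adjusted p = 1.3e-12). Gata1 averaged 0.597 CPM in Anergic against 18.6 CPM in Treg cells, 29.8-fold lower (adjusted p = 8.95e-13). Without Anergic library 1, the 1 lower in Treg than in Teff cells became 2, and with total counts alone the 3 higher in Anergic than in Treg cells became 1. The median log2 fold change of the list was -0.05 in Anergic against Teff, -0.51 in Anergic against Treg and 0.14 in Anergic against Naive cells. It was 0.07 in Treg against Teff, -0.05 in Treg against Naive and -0.89 in Teff against Naive cells. The last value is that of Foxp3 itself, at 0.733 CPM in Teff and 1.35 CPM in Naive cells, which was not called (adjusted p = 0.0835, edgeR).

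The NuRD complex, the nucleosome remodelling and deacetylase partner of Ikaros proteins, was tested with all 13 subunit genes. In Anergic cells, 3 were higher and 2 lower than in Teff cells, 1 higher and 2 lower than in Treg cells, and 3 higher and 2 lower than in Naive cells. In Treg cells, 5 were higher and 2 lower than in Teff cells, and 3 higher and 2 lower than in Naive cells, and Teff cells had 4 higher and 5 lower than Naive cells. The share called was 38.5% of the list in Anergic against Teff (26.6% of all tested genes), 23.1% in Anergic against Treg (31.0%) and 38.5% in Anergic against Naive cells (46.2%), so it lay below that of all genes against Treg and Naive cells. It was 53.8% in Treg against Teff (29.1%), 38.5% in Treg against Naive (32.8%) and 69.2% in Teff against Naive cells (34.9%). Chd3, an ATPase of the complex, averaged 886.6 CPM in Anergic against 1241 CPM in Treg cells, 1.40-fold lower (adjusted p = 1.95e-05). Hdac1, a histone deacetylase, averaged 88.5 CPM in Anergic against 106.8 CPM in Treg cells, 1.21-fold lower (adjusted p = 0.0024). In Teff and Naive cells, Chd3 averaged 915 and 1194 CPM and Hdac1 85.4 and 77.7 CPM. The 1 called higher in Anergic than in Treg cells was Mta2, with 197.5 against 167.5 CPM, 1.18-fold higher (adjusted p = 0.00423). The list medians were 0.03, -0.06 and -0.01 in Anergic against Teff, Treg and Naive cells, 0.17 in Treg against Teff, 0.05 in Treg against Naive and 0.08 in Teff against Naive cells. Several of these counts changed when 1 library was left out. The 3 higher in Anergic than in Teff cells became 1 without Anergic library 3 or Teff library 2 and 0 without Teff library 1 or 3. The 2 lower there became 1 without Anergic library 2 or 3, Teff library 3 or any Treg library. The 1 higher in Anergic than in Treg cells became 2 without Naive, Teff or Treg library 1. The 3 higher in Anergic than in Naive cells became 1 without Anergic library 1 or Naive library 1 or 2. The 2 lower in Treg than in Naive cells became 1 without Naive or Treg library 1 or 3 and 0 without Naive or Treg library 2. With total counts alone as the scaling, Anergic cells had 0 higher and 3 lower than Teff cells, 0 higher and 5 lower than Treg cells, and 0 higher and 2 lower than Naive cells, and 0 were lower in Treg than in Naive cells.

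Of 8 other chromatin partners, 7 were tested and Ctbp2 was not. In Anergic against Teff cells edgeR's test called 0 of them, 3 had an unadjusted p under 0.05 (Sin3a and Suz12 higher, Smarca4 lower), DESeq2 called 1 and limma's voom called 2. In Anergic cells 2 were higher than in Treg cells, and 2 were higher and 1 lower than in Naive cells. The calls elsewhere were 1 lower in Treg than in Teff cells, and 1 higher and 1 lower both in Treg and in Teff cells against Naive cells. These shares were near or below those of all tested genes. They were 0 of 7 in Anergic against Teff (26.6% of all genes), 2 of 7 in Anergic against Treg (31.0%), 3 of 7 in Anergic against Naive (46.2%), 1 of 7 in Treg against Teff (29.1%), 2 of 7 in Treg against Naive (32.8%) and 2 of 7 in Teff against Naive cells (34.9%). Ezh2, the methyltransferase of Polycomb complex PRC2, averaged 69.7 CPM in Anergic, 47.8 CPM in Treg, 71.3 CPM in Teff and 32.1 CPM in Naive cells. It was 1.46-fold higher in Anergic than in Treg cells (adjusted p = 1.7e-06) and 2.17-fold higher than in Naive cells (adjusted p = 1.37e-11). The 2 higher became 1 against Treg cells without Anergic library 2 or 3 or Treg library 2, and 1 against Naive cells without Anergic library 2 or 3 or Naive library 3. The 0 higher against Teff cells became 1 without Anergic or Naive library 1. The list medians were between -0.01 and 0.02 in all comparisons.

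The genes of Ikaros protein turnover and phosphorylation comprise the cereblon ubiquitin ligase, through which lenalidomide degrades Ikaros and Aiolos in human cells, casein kinase 2 and protein phosphatase 1. All 11 were tested. In Anergic cells, 2 were higher than in Teff cells, 3 higher than in Treg cells, and 4 higher and 1 lower than in Naive cells. Treg cells had 1 higher and 2 lower than Teff cells and 2 higher and 1 lower than Naive cells, and Teff cells had 1 higher and 1 lower than Naive cells. Of the 2 lower in Treg than in Teff cells, Ppp1ca had overlapping libraries. It had 12.6 ± 21.6 CPM (SD) in Teff libraries, ranging from 0 to 37.5 CPM, and 0.117 to 0.202 CPM in Treg libraries. No share was above that of all tested genes. It was 18.2% of the list in Anergic against Teff (26.6% of all genes), 27.3% in Anergic against Treg (31.0%), 45.5% in Anergic against Naive (46.2%), 27.3% in Treg against Teff (29.1%), 27.3% in Treg against Naive (32.8%) and 18.2% in Teff against Naive cells (34.9%). Crbn, the cereblon gene, averaged 87.0 CPM in Anergic, 62.6 CPM in Treg, 65.1 CPM in Teff and 60.8 CPM in Naive cells, and was 1.34-fold higher in Anergic than in Teff cells (adjusted p = 0.000264). Cul4b, the ligase scaffold, averaged 57.9 CPM in Anergic against 38.8 CPM in Teff cells, 1.49-fold higher (adjusted p = 1.52e-05). Lower in Anergic than in Teff or Treg cells were 0 members by edgeR, DESeq2 or voom, and 0 had an unadjusted p under 0.05 in that direction. Without Treg library 2, the 3 higher in Anergic than in Treg cells became 1, and without Anergic library 1, 1 member was lower than in Teff cells. Most of the counts of 1 or 2 in the other comparisons also moved by 1 or 2 calls when a library was left out, as given in the closing section. The list medians were 0.03, 0.06 and 0.17 in Anergic against Teff, Treg and Naive cells, 0.04 in Treg against Teff, 0.04 in Treg against Naive and 0.10 in Teff against Naive cells.

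Of 15 genes reported to depend on Ikaros family factors in lymphocytes, 13 were tested, and Hes1 and Notch3 were not. In Anergic cells, 3 were higher and 8 lower than in Teff cells, 6 higher and 6 lower than in Treg cells, and 9 higher and 3 lower than in Naive cells. Treg cells had 5 higher and 4 lower than Teff cells and 8 higher and 1 lower than Naive cells, and Teff cells had 7 higher and 3 lower than Naive cells. The number called was 11 of 13 in Anergic against Teff (26.6% of all tested genes), 12 of 13 in Anergic against Treg (31.0%) and 12 of 13 in Anergic against Naive cells (46.2%). It was 9 of 13 in Treg against Teff (29.1%), 9 of 13 in Treg against Naive (32.8%) and 10 of 13 in Teff against Naive cells (34.9%). Il2ra is one of the 13. Treg cells were sorted as CD25+, so its calls in the comparisons with Treg cells describe the sort. The list was chosen with earlier results of these data known, so the distance from all genes supports nothing. Bcl6, a transcriptional repressor that follicular helper T cells depend on, averaged 73.1 CPM in Anergic, 24.4 CPM in Treg, 21.45 CPM in Teff and 20.3 CPM in Naive cells. It was 3.41-fold higher in Anergic than in Teff cells (adjusted p = 3.72e-13). Tbx21, the T-bet gene of Th1 cells, averaged 32.4 CPM in Anergic against 116.6 CPM in Teff cells, 3.60-fold lower (adjusted p = 4.43e-11), and against 3.59 CPM in Treg cells it was 8.96-fold higher (adjusted p = 5.79e-12). The 8 lower in Anergic than in Teff cells became 5 without Anergic library 2 or without Anergic library 3. The 1 lower in Treg than in Naive cells, Dntt, was joined by another without library 1 of Anergic, Naive or Teff cells or Anergic library 3.

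Il2, a gene that Ikaros and Aiolos repress, was near the detection limit, with 1.45 ± 0.29 CPM in Anergic, 0.0391 ± 0.068 CPM in Treg and 2.03 ± 0.25 CPM in Teff cells (SD, n = 3 libraries each) and no reads in Naive cells. Its log2 fold change between Anergic and Teff cells was -0.47 ± 0.40 SE (adjusted p = 0.441, edgeR). Il2ra, the CD25 gene by which Treg cells were sorted, averaged 15.2 CPM in Anergic against 44.4 CPM in Teff cells, 2.94-fold lower (adjusted p = 6.2e-09). The list medians were -0.62, -0.81 and 1.24 in Anergic against Teff, Treg and Naive cells and 0.19 in Treg against Teff cells. Against Naive cells they were 1.05 in Treg and 1.04 in Teff cells, or 0.66 and 1.03 with genes that had no reads in Naive cells set at a floor of 3 counts over the subset. The median of -0.81 is the value of Il10, with 2.89 CPM in Anergic and 5.15 CPM in Treg cells. Il10 was not called there (adjusted p = 0.159, edgeR), and the called genes were split into 6 higher and 6 lower. The sum of the 5 NK and innate-like T cell markers was, like Tbx21, highest in Teff and intermediate in Anergic cells. Zbtb16 and Klrb1c had this order. Eomes and Trdc did not, with 15.9 and 5.11 CPM in Anergic against 14.1 and 2.33 CPM in Teff cells. Ncr1 had at most 1 read a library. The part of such cells in these values was not tested.

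**Figure D5:**
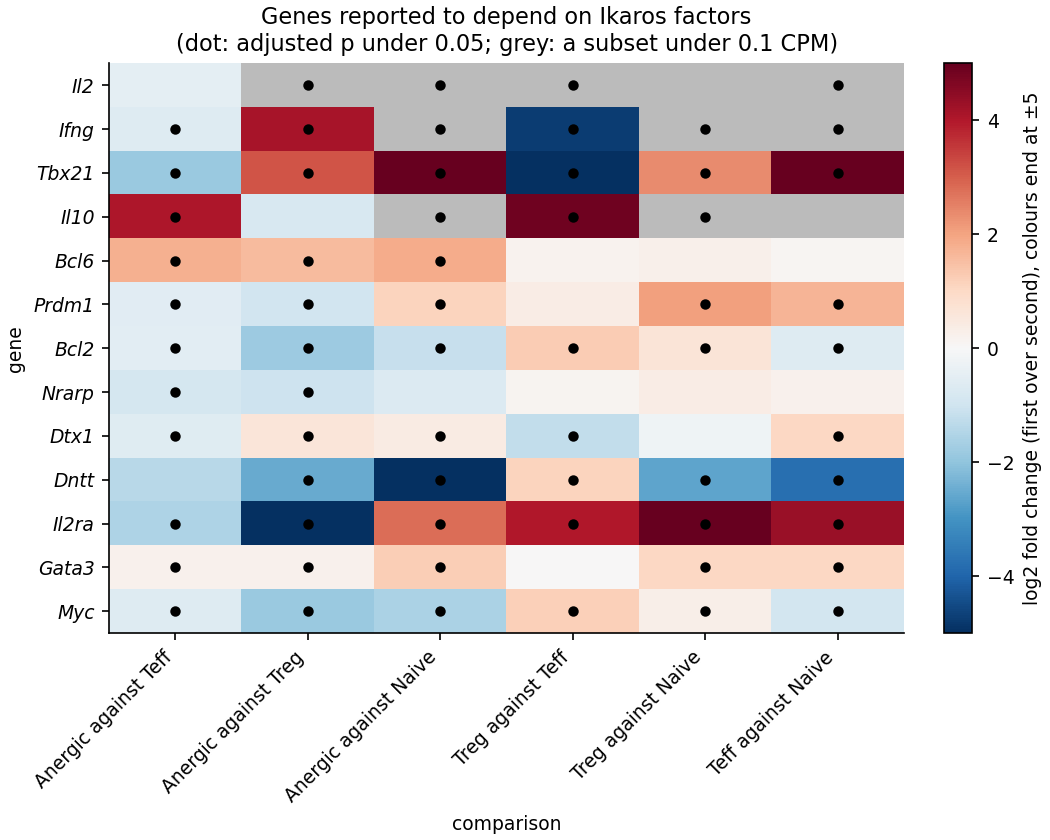
Log2 fold change (colour, red for higher and blue for lower in the first-named subset, with the scale ending at 5 in either direction) of the 13 tested genes reported to depend on Ikaros family factors (vertical axis) in the 6 comparisons (horizontal axis). Dots mark an adjusted p under 0.05, and grey cells have a subset mean under 0.1 CPM. Bcl6 is red in the 3 comparisons with Anergic cells first, and Il2ra is blue in Anergic against Teff cells. The colours of Il2ra in comparisons with Treg cells describe the sort, since Treg cells were gated as CD25+.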

How the data were processed

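RNA was measured in 12 libraries of sorted CD4 T cells. The deposited values are raw counts of reads per gene. The labels' protocols name the RNeasy kit (QIAGEN) for extraction and Takara's stranded SMARTer Pico kit for the total RNA libraries. Per the submitters' processing notes, the authors used HISAT2, featureCounts and genome GRCm38 (mm10). Neither the gene annotation nor whether reads were counted by strand is given in the sources used here.

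Columns were matched to libraries by name, and subsets were taken from the labels. The test was that of edgeR 4.0.16 under R 4.3.3: TMM scaling, filterByExpr, means of 4 subsets over all 12 libraries, glmQLFit and glmQLFTest, two-sided, with Benjamini-Hochberg adjustment over 13393 genes and a threshold of 0.05 (common biological coefficient of variation 0.0764). The standard error is the size of the log2 fold change divided by the square root of F. The procedure was also run on simulated counts with independent libraries, and no result here rests on that run. Libraries of the same subset were unequal beyond counting noise, with chi-square values of 2.2 to 21.5 per degree of freedom. Exon lengths and sequences came from GENCODE M21 on GRCm38. Precision follows from 6909035 to 9527897 counts a library and from 3 libraries a subset.

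The members and lists were chosen with earlier results of these data known. Named genes are the members, up to 2 risen and 2 fallen members of each list with the smallest adjusted p in a comparison, of which a selection is printed, the 3 genes nearest in pattern to each member, and sort markers. Pstk, Smarca4, Sin3a and Il2 were added after their values were seen. Alternatives were DESeq2 1.42.0, limma 3.58.1 (voom), DESeq2 size factors, total counts alone, no filter, at least 5 CPM in 3 libraries, abundant entries removed, the 2 compared subsets alone, a replicate block and each library left out.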

Additional observations from a re-analysis of the deposited data

How the results depend on the processing

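Across 660 recomputed fold changes of the members under the alternatives, 636 kept their direction and their side of the threshold. All calls for Ikzf2 and Ikzf4 did so. The exceptions among Ikzf1 and Ikzf3 were 6 values. With total counts alone, Ikzf1 in Anergic against Treg cells was 0.169 (adjusted p = 0.0686), where the median of all genes moved to -0.13 and to -0.10 in Anergic against Teff cells. Ikzf3 in Anergic against Naive cells passed at 0.182 without Anergic replicate 3, also with abundant entries removed (adjusted p = 0.0439 and 0.0391; range with a library left out 0.0853 to 0.182). Ikzf3 in Treg against Teff cells passed at 0.16 with voom (adjusted p = 0.0437) and with the replicate block (adjusted p = 0.0261), and ranged from 0.108 to 0.207 with a library left out. The cause was not tested.

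Ikzf5, which no comparison called, changed sign in 18 of its alternatives. In Anergic against Naive cells it was -0.0496 with total counts alone, -0.00253 with the filter of 5 CPM, -0.00142 with abundant entries removed and -0.106 with these removed and without Anergic replicate 3. With total counts alone it was 0.000456 in Treg against Teff cells. With a library left out, it ranged from -0.163 to 0.0483 in Anergic against Teff, -0.128 to 0.0835 in Anergic against Treg, -0.118 to 0.106 in Anergic against Naive, -0.0736 to 0.0374 in Treg against Teff, -0.0944 to 0.115 in Treg against Naive and -0.0656 to 0.144 in Teff against Naive cells.

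Total counts alone also moved the split of all called genes. It gave 1218 higher and 2274 lower in Anergic against Teff cells (1864 and 1702 with TMM), 1325 and 3027 in Anergic against Treg cells (2096 and 2054), 2922 and 1129 in Treg against Naive cells (2538 and 1858), 2718 and 1489 in Teff against Naive cells (2570 and 2099) and 2002 and 1514 in Treg against Teff cells (2006 and 1888). In Anergic against Naive cells it gave 2878 and 2998 (3342 and 2851), so the larger side turned from higher to lower.

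With the longest transcript as length, the share of Ikzf1 was 46.4% in Anergic, 27.7% in Treg, 54.1% in Teff and 76.1% in Naive libraries. That of Ikzf2 was 26.2% in Treg and 5.02% in Teff cells, and that of Ikzf3 was 23.1%, 35.2%, 38.3% and 20.4% in Anergic, Treg, Teff and Naive cells. With no length correction, in the same order of subsets, Ikzf1 had 39.7%, 23.7%, 54.3% and 77.9%, Ikzf2 had 38.3%, 40.3%, 9.06% and 0.49%, and Ikzf3 had 17.6%, 26.9%, 34.3% and 18.7%.

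Libraries share replicate numbers across subsets, but the correlations of same-numbered libraries around their subset means were -0.0485 to 0.184 over 18 pairs, so the numbers were not taken as pairs. By these values 11 of 12 libraries correlated best with their own number, which is a hint of pairing from the data. The labels also list the libraries number by number, with every subset in each set. No label says that a number marks a shared animal or day, so pairing is possible but not established. The replicate block changed no other call of a member. Among 1320 recomputed counts of list members, 121 moved by more than 1.5 times. For turnover and phosphorylation, leaving out a library gave 0 to 3 lower in Anergic against Naive cells, 0 to 1 higher and 1 to 2 lower in Treg against Teff cells, 1 to 3 higher and 1 to 2 lower in Treg against Naive cells, and 1 to 3 higher and 0 to 2 lower in Teff against Naive cells. Depth limits Ikzf2 in Naive cells (23 to 39 reads a library), Ikzf4 in Teff cells (20 to 26 reads) and Il2.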
